A study of Mus musculus with 2 samples.

Results

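The Ikaros zinc finger family comprises 5 genes, Ikzf1 (Ikaros), Ikzf2 (Helios), Ikzf3 (Aiolos), Ikzf4 (Eos) and Ikzf5 (Pegasus). They were followed here through every probe set that the platform annotation pairs with exactly 1 of these symbols, which gave 13 of the 45101 probe sets on the array. No probe set that is paired with several symbols named a family gene. The RNA was that of regulatory T cells (Treg), CD4 T cells that hold immune responses in check. They were obtained by flow cytometric sorting of spleen and lymph node cells, and the donors were female mice of 6 to 8 weeks. The tested Treg came from mice labelled Foxp3 Cre/wtS and Stat3 fl/fl, in which both copies of the gene for the transcription factor Stat3 are flanked by loxP sites. The other Treg came from mice labelled Foxp3 Cre/wtS and Stat3 fl/wt, with 1 such copy, so both genotypes carried the Cre recombinase that Foxp3 drives. The series' design text writes the Foxp3 genotype of the fl/fl mice as Cre/wt, without the S. Foxp3 lies on the X chromosome, and in females with 1 Cre allele the recombinase acts only in Treg that use that X. Whether such cells were sorted apart, and how many mice each sample pools, is not stated in the labels.

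Each genotype was measured on 1 array, and no value below has replicate error or a test. Values are deposited log2 GCRMA signals. A probe set is called measured where each array put it at log2 5 or higher, and differences are log2 values of fl/fl minus fl/wt. Signals ran from log2 0.55 to 16.9 in fl/fl and from 0.53 to 16.9 in fl/wt. Of all probe sets, 43.0% were measured. Of the Treg markers, 10 of the 11 with a probe set were measured, and Foxp3 itself was under log2 5 in both arrays, at 3.52 in fl/fl and 4.09 in fl/wt. Read by brightest probe sets, the differences of the measured Treg markers ran from -0.10 for the IL-2 receptor chain Il2ra to 0.096 for Ikzf4. The other measured Ikzf4 probe set differed by -0.14. The family genes Ikzf2 and Ikzf4 are themselves in this marker list. Of the 6 T cell markers with a probe set, all 6 were measured, with Cd3d, a chain of the T cell receptor complex, at 14.25 in fl/fl and 14.23 in fl/wt. Markers of other cells were measured too, counted among those with a probe set: 9 of 10 myeloid, 5 of 9 B cell, 3 of 5 plasma cell, 4 of 8 dendritic, 5 of 6 CD8 and NK and 2 of 5 red cell and platelet markers. The macrophage receptor Csf1r, the brightest of these, read 14.00 in fl/fl and 13.99 in fl/wt, and the B cell receptor chain Cd79b read 10.26 in fl/fl and 10.34 in fl/wt. The B cell marker Cd22 read 8.68 in fl/fl and 8.81 in fl/wt, whereas the B cell factor Pax5 was at 1.89 in fl/fl and 1.88 in fl/wt. Foxp3 was likewise under log2 5 in these Treg samples, so a low value does not show that a cell type is absent. The summed signal of the measured myeloid markers was log2 15.92 in fl/fl and 15.93 in fl/wt, and that of the B cell markers 10.99 in fl/fl and 11.08 in fl/wt. Ikaros is also made by myeloid and B cells and Aiolos by B cells, and the part of those cells in the Ikzf1 and Ikzf3 signals was not tested. In such bulk samples, fewer cells of a type and less RNA per cell cannot be told apart.

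Ikaros family proteins bind DNA through zinc fingers near the N terminus and bind each other through zinc fingers at the C terminus, so that members form mixed complexes. They recruit chromatin remodelling and corepressor complexes, and act as repressors or activators depending on the gene. Ikaros and Aiolos are known from lymphocyte development, whereas Helios and Eos are enriched in Treg among CD4 T cells. Helios supports a stable Treg phenotype, and Eos works with Foxp3 to silence effector genes. Pegasus is a more distant relative found in many tissues.

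Helios gave the brightest family signal in both genotypes. The brightest Ikzf2 probe set, 1437542_at, stood at log2 13.86 in fl/fl and 13.88 in fl/wt, above 98.3% of all probe sets on each array. Its second probe set, 1456956_at, stood at 13.06 in fl/fl and 13.01 in fl/wt. Both lay above the brightest probe set of every relative. The third, 1421643_at, stood at the edge of the measured range, with 5.04 in fl/fl and 4.83 in fl/wt. It was the sole family probe set at or above log2 5 in 1 array alone. Of all probe sets, 19587 reached log2 5 in fl/fl and 19554 in fl/wt, with 19393 in both. With fl/wt set to log2 5, the signal of 1421643_at was 1.03-fold higher in fl/fl, too near the floor to give a direction.

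Read by brightest probe sets alone, Eos was the fourth of the family by signal. Its brightest probe set, 1457342_at, read log2 12.17 in fl/fl and 12.08 in fl/wt. The next, 1438274_at, read 11.85 in fl/fl and 11.98 in fl/wt. Which of this pair was brighter was the same in both arrays. The third, 1460664_at, lay in the low end where values have no order, at 2.11 in fl/fl and 2.01 in fl/wt.

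Ikaros and Aiolos were nearly equal in signal by their brightest probe sets. Ikzf1 was read by 1436312_at at log2 12.51 in both fl/fl and fl/wt, and its other probe set, 1421303_at, was low in both, at 2.49 in fl/fl and 2.48 in fl/wt. Ikzf3 was read by 1436649_at at 12.44 in fl/fl and 12.51 in fl/wt. The order of this pair turned between arrays, with Ikaros above Aiolos in fl/fl and below it in fl/wt, so no order is given for these neighbours. A second Ikzf3 probe set, 1441088_at, read 6.45 in fl/fl and 6.25 in fl/wt, and the last, 1453378_at, read 2.68 in fl/fl and 2.67 in fl/wt. With the median of measured probe sets, which lets the dim Ikzf3 probe set count, Ikaros lay 0.94 and Aiolos 4.04 log2 units below Helios.

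Pegasus was the dimmest family member by its brightest probe set. By the dimmest measured probe set, Aiolos and Pegasus were close, at 6.35 and 6.42 as means of both arrays. Aiolos was above in fl/fl, at 6.45 against 6.37, and below in fl/wt, at 6.25 against 6.46, so no order is given. The Pegasus probe sets 1429431_at and 1436554_at were both measured. The first read log2 9.89 in fl/fl and 9.79 in fl/wt, and the second 6.37 in fl/fl and 6.46 in fl/wt.

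**Figure D1:**
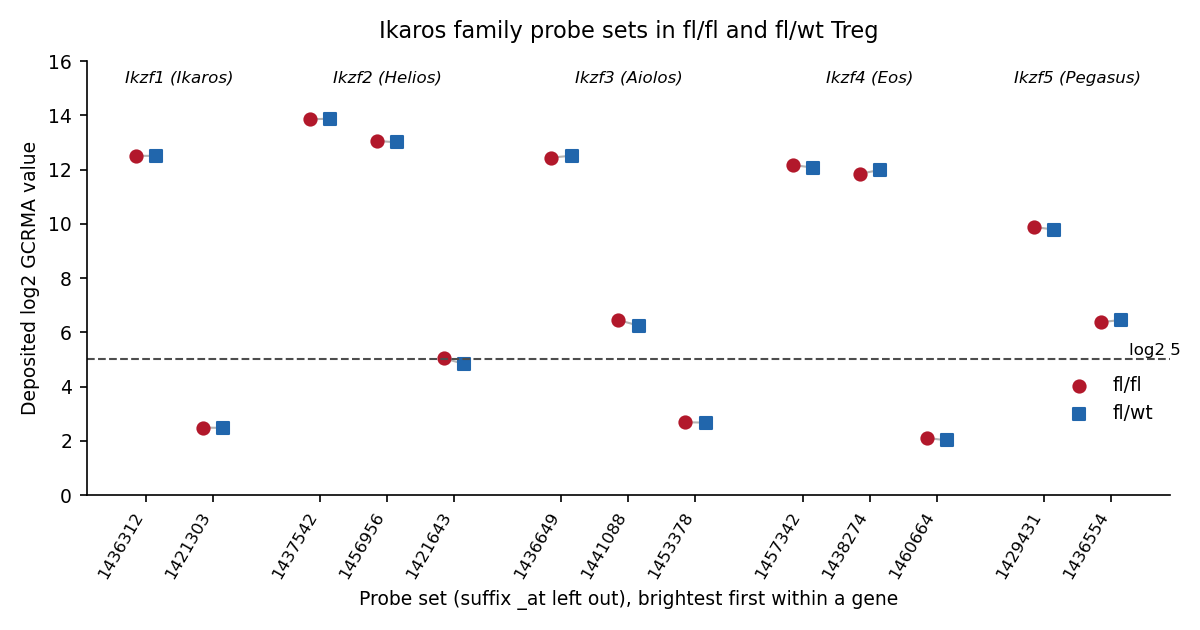
Deposited log2 GCRMA value (vertical axis) of the 13 Ikaros family probe sets (horizontal axis, grouped by gene, brightest first) in fl/fl (circles) and fl/wt (squares), 1 array each; the dashed line is log2 5. The brightest Ikzf2 probe set stands at 13.86 in fl/fl and 13.88 in fl/wt, and probe sets of 4 genes span from over log2 12 to about log2 5 or less.

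Read by its brightest probe set and averaged over both arrays, Helios stood 1.36 log2 units above Ikaros, 1.39 above Aiolos, 1.74 above Eos and 4.03 above Pegasus. Those gaps varied little between arrays. The Helios to Ikaros gap was 1.35 in fl/fl and 1.37 in fl/wt, and the Helios to Eos gap was 1.68 in fl/fl and 1.80 in fl/wt. On the same scale Eos minus Ikaros was -0.38, Eos minus Aiolos -0.35 and Eos minus Pegasus 2.29. The gap of Eos minus Aiolos was -0.27 in fl/fl and -0.44 in fl/wt.

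These gaps are of probe set signal, which depends on how well each set of probes binds, and they are not amounts of transcript. In 4 of the 5 genes, probe sets of the same gene lay further apart than the brightest probe sets of any pair of family genes. With values under log2 5 set to 5, the range among probe sets of 1 gene was at least 7.51 log2 units for Ikzf1, 8.87 for Ikzf2, 7.48 for Ikzf3 and 7.12 for Ikzf4. It was 3.42 for Ikzf5, both of whose probe sets were measured. Over the 9012 genes on the array with at least 2 probe sets, the median of that range was 2.25, and 7.67% of genes reached 7 or more. Among measured probe sets alone, the Ikzf4 pair were 0.21 apart in level and the Ikzf2 pair 0.84 apart. The Ikzf5 pair were 3.42 apart and the Ikzf3 pair 6.13 apart. For the 2585 genes with exactly 2 measured probe sets the median level range was 1.82. A range as wide as that of Ikzf3 was found in 2.90% of those genes.

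The order of the family therefore rests in part on the probe set chosen. With the median of measured probe sets in place of the brightest, Helios remained above Ikaros, by 0.94, and above Eos, by 1.43. Eos however stood 2.61 above Aiolos, the opposite of its place by brightest probe sets, because the dim Ikzf3 probe set then counts.

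The type of accession in the annotation went with signal within the family, a pattern chosen after the values were seen. A RefSeq transcript accession (NM) was given for 3 family probe sets, 1 each of Ikzf1, Ikzf2 and Ikzf4, and 0 of the 3 were measured. Of the other 10, 9 were measured. Over all probe sets with 1 symbol the shares were nearly equal, with 48.4% of 5891 measured where the accession was of that type and 46.9% of 29067 otherwise. The annotation used here does not place these probe sets within the transcripts.

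No family probe set differed by 1.5-fold between genotypes. Of the 9 measured, 0 passed that fold, against 0.665% of the 19393 measured probe sets overall. That share was 3.06% for means between log2 5 and 7 and 0.035% between 9 and 11. It was 0% between 11 and 13 and between 13 and 17. These bands held 2, 1, 4 and 2 of the family probe sets, so the absence of calls says little about the family. The differences of these 9 ran from -0.14 for an Eos probe set to 0.20 for an Aiolos probe set, which is 1.15-fold. In direction, 5 probe sets were higher and 4 lower in fl/fl, with 49.1% of all measured probe sets higher. The median difference was 0.0031 for the family and -0.0018 for all measured probe sets. The median size of the difference was 0.087 for the family and 0.058 for all. Of the 9 family probe sets, 2 were at least 0.1 apart on the log2 scale, which is 22.2%, against 31.2% of all measured probe sets. The 31.2% is not matched for brightness. That share was 56.3% between log2 5 and 7 and 24.5% between 9 and 11. It was 9.69% between 11 and 13 and 2.30% between 13 and 17.

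The size of a difference depends on signal, and the family members are best read against probe sets of like brightness. Among probe sets with a mean between log2 5 and 7, the median size of a difference was 0.12, and between 11 and 13 it was 0.037. The Eos probe set 1438274_at differed by -0.14, and 3.34% of the probe sets between log2 11 and 13 differed by as much. The other measured Eos probe set differed by 0.096, a size reached by 10.8% of that band. For the brightest Ikzf3 probe set, at -0.068, the share was 22.7%. The Ikzf1 probe set, at 0.0031, was among the least different, with 95.7% of the band as far apart or more. The bright Helios pair differed by -0.025 and 0.049, sizes reached by 49.0% and 21.2% of probe sets between log2 13 and 17. The largest difference among the measured family probe sets, 0.20 for the dim Ikzf3 probe set 1441088_at, was reached by 31.6% of its band. For Pegasus, 0.096 for the brighter and -0.087 for the dimmer probe set were reached by 26.3% and 60.6% of their bands.

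**Figure D2:**
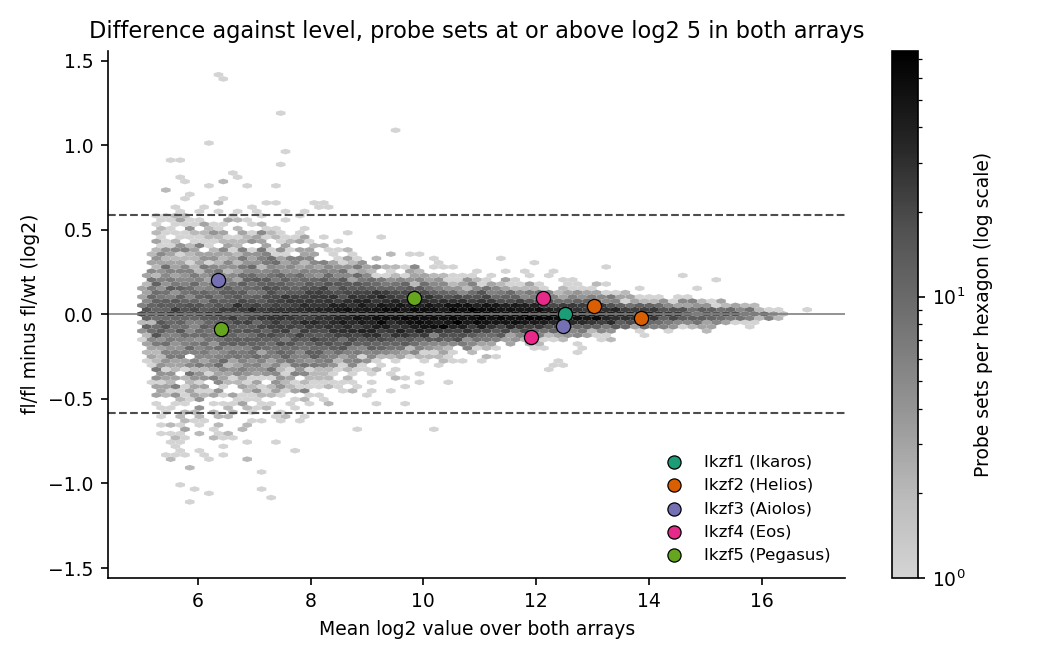
Difference fl/fl minus fl/wt (log2, vertical axis) against mean log2 value over both arrays (horizontal axis) for the 19393 measured probe sets (grey, darker where there are more) and the 9 measured Ikaros family probe sets (coloured points); dashed lines mark 1.5-fold. All 9 lie inside the dashed lines, and the spread of the grey cloud narrows with signal.

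Probe sets of the same gene did not share a direction in any of the 4 family genes with 2 measured probe sets. For Helios the brighter probe set was lower in fl/fl, by -0.025, and the dimmer one higher, by 0.049. Aiolos had the same arrangement, with -0.068 for the brighter and 0.20 for the dimmer. Eos and Pegasus had the opposite one. The brighter Eos probe set differed by 0.096 and the dimmer by -0.14, and the brighter Pegasus probe set differed by 0.096 and the dimmer by -0.087. Opposite signs were also found in 50.2% of the 2585 genes with exactly 2 measured probe sets. The 2 probe sets of a gene differed from each other by 0.073 for Ikzf2, 0.18 for Ikzf5, 0.23 for Ikzf4 and 0.27 for Ikzf3, where the median over those genes was 0.095. A gap as wide as that of Ikzf4 was found in 16.6% of genes and one as wide as that of Ikzf3 in 12.8%. Those shares are over pairs of any brightness, and pairs of like brightness were not compared. Both Ikzf4 probe sets lie between log2 11 and 13, where the median size of a difference was 0.037. Between 5 and 7, where the dimmer Ikzf3 probe set lies, it was 0.12. The readings of Helios, Aiolos, Eos and Pegasus thus gave no shared direction in fl/fl, and Ikaros, with 1 measured probe set, has no second reading.

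**Figure D3:**
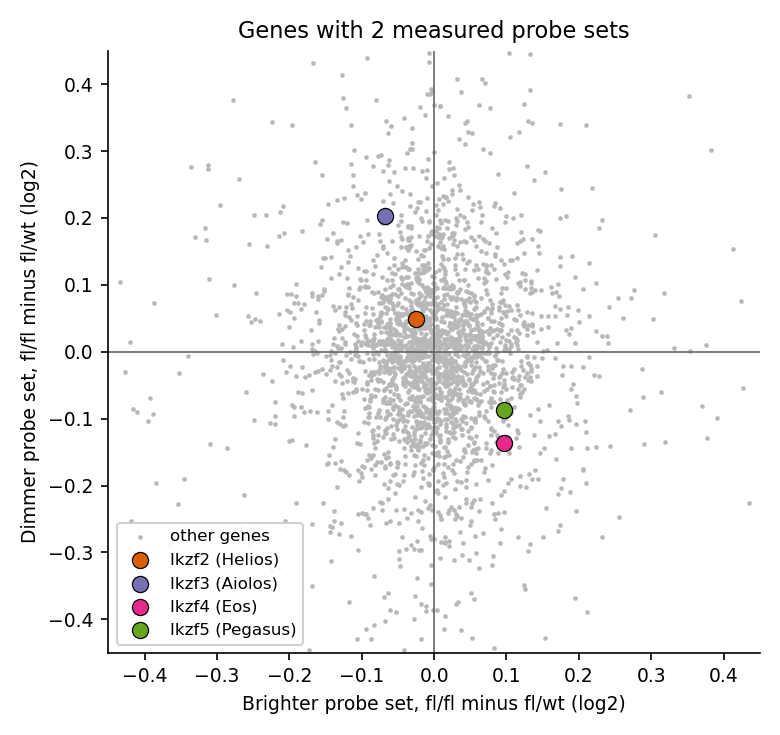
Difference fl/fl minus fl/wt (log2) of the brighter (horizontal axis) and the dimmer (vertical axis) of a gene's 2 measured probe sets, for 4 Ikaros family genes (large points) and other genes (grey); 64 of the 2585 pairs lie outside the axes. All 4 family genes fall in the quadrants where the signs are opposite.

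The Stat3 probe sets do not check the genotype labels, because where they lie with respect to the floxed exons is not stated in the labels or the annotation. The brightest read log2 11.99 in fl/fl and 12.00 in fl/wt. The 3 measured Stat3 probe sets differed by -0.083 to -0.0083, all lower in fl/fl. Among 11 genes that link Stat3 and the related Stat5 proteins with Aiolos and with cytokine signalling, all were measured, 7 were higher and 4 lower in fl/fl, and 0 passed 1.5-fold, against 0.548% of the 9669 measured genes. Of all measured genes, 47.4% were higher. The median of the 11 was 0.0063, against -0.0046 for all measured genes. Stat5a, which carries the IL-2 signal together with Stat5b, differed by 0.13 and the IL-6 receptor chain Il6ra by 0.10. On the lower side were Stat5b, at -0.077 with a second probe set at 0.049, and Bcl6, the follicular helper factor, at -0.067.

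Corepressor partners of the family were mostly measured and differed little between genotypes. Of 24 listed genes, 22 were measured, 8 were higher and 14 lower in fl/fl, and 0 passed 1.5-fold, with a median of -0.020. Of all measured genes, 47.4% were higher and 0.548% passed that fold, with a median of -0.0046. Ctbp1, a corepressor that Eos recruits, read log2 13.44 in fl/fl and 13.50 in fl/wt. Chd4, the remodelling ATPase of the NuRD complex that Ikaros recruits, differed by -0.069, while its other measured probe sets reached 0.35. Sap30, a subunit of the Sin3 complex, had the highest difference at 0.20, followed by the NuRD subunit Mta1 at 0.10. The lowest were the NuRD subunits Mta2, at -0.10, and Mbd2, at -0.093.

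Enzymes that act on Ikaros proteins showed differences of the same small size. Of 16 listed, 14 were measured, 5 were higher and 9 lower in fl/fl, and 0 passed 1.5-fold, with a median of -0.023. Of all measured genes, 47.4% were higher and 0.548% passed that fold. Crbn, which encodes cereblon, the ubiquitin ligase adaptor through which thalidomide analogues degrade Ikaros and Aiolos in human cells, read 12.68 in fl/fl and 12.57 in fl/wt. Its 3 measured probe sets differed by 0.013 to 0.16, all in the same direction. The phosphatase subunit Ppp1cb differed by 0.077, with its other probe sets reaching -0.048. The kinases Syk, at -0.11, and Btk, at -0.10, both prominent in B and myeloid cells, were lowest, and another Syk probe set differed by 0.34.

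Among genes that have been linked to control by family members, 25 of 36 listed were measured. Of these, 7 were higher and 18 lower in fl/fl, 0 passed 1.5-fold and the median was -0.032. Over all measured genes 47.4% were higher, 0.548% passed that fold and the median was -0.0046; the list was not tested against them. Satb1, a chromatin organiser that Foxp3 and Eos repress, read 13.28 in both fl/fl and fl/wt. Il2, the cytokine gene that Treg keep silent, was under log2 5 in both arrays, at 2.45 in fl/fl and 2.43 in fl/wt. The effector cytokine gene Ifng, on the same list, was measured, at 10.46 in fl/fl and 10.43 in fl/wt. Foxp3 was under log2 5 here too, so a low value does not by itself show silence. Lef1, a T cell factor of naive cells, and Id2, an inhibitor of E proteins, had the highest differences, at 0.061 and 0.045. Both had other probe sets in the opposite direction. The lowest were Hes1, the Notch target that Ikaros restrains in thymocytes, at -0.17, and the receptor gene Notch1, at -0.13 with another probe set at 0.23.

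**Figure D4:**
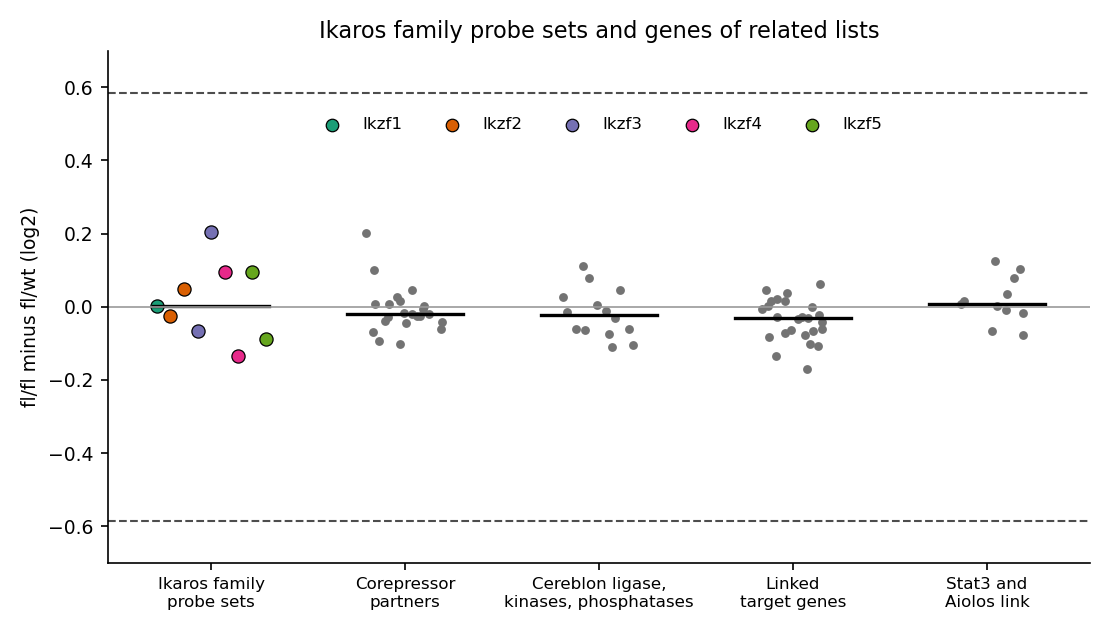
Difference fl/fl minus fl/wt (log2, vertical axis) of the 9 measured Ikaros family probe sets (coloured) and of measured genes in 4 related lists (grey, each gene by its brightest probe set); horizontal bars are medians and dashed lines mark 1.5-fold. All points lie inside the dashed lines, and the list medians run from -0.032 to 0.0063.

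Promoter windows from RefSeq (GRCm38.p6, 250 bases before to 50 after a start site) matched 2 of the 5 family genes, with 2 windows for Ikzf1 and 1 for Ikzf5. They were searched on both strands for TTCNNNGAA, the palindrome that Stat proteins bind, because the genotypes differ in Stat3. A match was found in 2 of the 3 windows, and in 8.30% of all 32851 windows. The matches are shown with 10 bases on either side, in the direction of the gene, with the match in capitals.
Ikzf1: ggttctacctTTCTCTGAAccccagtggt
Ikzf5: tcgcaaggctTTCCACGAAcccttgcgca
The Ikzf1 stretch lies at chr11:11690185-11690213 on the plus strand, with the match starting at base 19 of the transcribed side. The Ikzf5 stretch lies at chr7:131410686-131410714 on the minus strand, with the match starting at base -226. A match of letters is a description and shows no binding. The TGGGAA core that Ikaros proteins recognise was found in 0 of the 3 family windows and in 25.6% of all windows. The differences of the genes with a match were 0.0031 for Ikzf1 and 0.096 and -0.087 for the Ikzf5 probe sets, all under 1.5-fold.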

How the data were processed

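The deposited table holds log2 values, which the authors made with GCRMA per the submitters' processing notes, for 45101 probe sets on 2 arrays, 1 for each genotype. The GCRMA version and settings, and whether more arrays entered the normalisation, are not given here. The method models background from probe sequence, and low signals end up close together without a meaningful order. Symbols came from the platform annotation, and all 5 family symbols matched RefSeq (GRCm38.p6) by Entrez identifier.

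Differences were computed as fl/fl minus fl/wt with Python 3.11.15, numpy 2.4.6 and pandas 2.3.3, and loess with statsmodels 0.14.6. A gene was read by its measured probe set with the highest mean. The call was 1.5-fold. With 1 array per genotype no test was possible, and the number of arrays limits the precision. The code was tested on simulated data. Family members, 12 gene lists and alternatives were chosen with earlier results of these data known. All family probe sets were named. From each related list the 2 highest and the 2 lowest differences were named, with Stat3, Foxp3, Crbn, Ctbp1, Chd4, Il2 and Satb1 whatever their values. The rule also covers the Treg markers and the 2 brightest genes of each other marker list, of which some are printed. Pax5 and Ifng were added after their values were seen. No gene was named as most like a family member, since over 2 arrays a pattern is a single difference.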

Additional observations from a re-analysis of the deposited data

How the results depend on the processing

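The alternatives were floors of log2 4 and 6 and none, quantile normalisation, median centring, loess, 32 added on the linear scale, no probe sets with shared suffixes, a 2-fold threshold, and the median, mean or dimmest of a gene's measured probe sets. The count of family probe sets past 1.5-fold was 0 under all 9 alternatives run for it, the number measured was 9 to 13, and the family median was 0.0030 to 0.026. The 0 was fixed by construction for the 2-fold threshold, the floor of log2 6, no shared suffixes and 32 added. As a tolerance, 0.14 was used, the SD between differences of probe sets of 1 gene, divided by the root of the number of members for lists. Of 55 alternative gene differences, 3 moved further, all with the dimmest probe set: Ikzf3 to 0.20, Ikzf4 to -0.14 and Ikzf5 to -0.087. In all 10 had the opposite sign, in 4 of the 5 genes. The tolerance pools probe sets of all brightness, so it is wide for bright ones. Ikzf4 went from 0.096 to -0.020 with the median or mean and was counted as within it. The floors, median centring and loess left the mean gaps between brightest probe sets unchanged by construction. Helios stayed above every relative in all level gaps run. With the median, and equally the mean, of probe sets it stood 0.94 above Ikaros, 4.04 above Aiolos, 1.43 above Eos and 5.32 above Pegasus, and with the dimmest 0.52, 6.68, 1.12 and 6.62. The dimmest was run with the floor of log2 5 alone, which left out the third Helios probe set, at a mean of 4.94. Gaps of the dimmest probe sets at a lower floor were not run. Eos minus Aiolos changed sign, to 2.61 with the median or mean and 5.57 with the dimmest. Eos minus Pegasus was 3.89 with the median or mean and 5.50 with the dimmest, and Eos minus Ikaros -0.59 with the dimmest. The Ikzf2 level range was 8.93 and its difference range 0.23 with a floor of log2 4 or none, by construction, since the third probe set then counts. With no floor the level range was 9.80 for Ikzf3 and 10.06 for Ikzf4, and with 32 added it was 5.66 for Ikzf3 and 3.01 for Ikzf5. Of 131 list medians 8 moved beyond tolerance, and in 7 lists a median had the opposite sign. With no floor the B cell median was 0.0051 and the dendritic one 0.015. The dendritic median was 0.026 as the median or mean and 0.027 with the dimmest probe set, and the myeloid one -0.050 as the median or with the dimmest. The red cell and platelet median was 0.20 without shared suffixes, where 1 of its 2 genes is lost. The cause of the other list moves was not tested.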

Other observations

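Marker lists of cells other than Treg had medians from -0.13 for B cells to 0.099 for dendritic cells. The median of all measured genes was -0.0046. None of the measured genes in these lists passed 1.5-fold, against 0.548% of all measured genes. The plasma cell list had a median difference of 0.020 over 3 measured genes, with Xbp1, the secretory factor, at log2 13.38 in fl/fl and 13.36 in fl/wt. The dendritic list had 0.099 over 4 measured genes, with Irf8, a factor of dendritic cells and macrophages, at 11.95 in fl/fl and 11.91 in fl/wt. The CD8 and NK list had 0.076 over 5 measured genes, with Cd8b1 at 8.81 in fl/fl and 8.54 in fl/wt and Cd8a, in the opposite direction, at 8.26 in fl/fl and 8.29 in fl/wt. The B cell list had -0.13 over 5 measured genes and the myeloid list 0.0023 over 9. The red cell and platelet list had -0.044 over 2 measured genes. The T cell and Treg lists had -0.0056 over 6 and -0.0080 over 10.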
